A study of Sus scrofa with 28 samples.

Results

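The endoplasmic reticulum chaperones and XBP1 are a set of 9 genes, XBP1, SDF2L1, HSPA5, HSP90B1, DNAJB9, PDIA4, PDIA6, HERPUD1 and CALR, which were followed in swine lung over 3 exposures and 3 lobes. A probe set belonged to the set where the porcine array annotation gave it exactly 1 symbol and that symbol was on the list. This chose 13 of the 23999 probe sets that are not array controls. They covered 8 of the 9 genes, of 6765 symbols on the array, because no probe set carried HERPUD1 as its single symbol, and its level was not analysed here. HSP90B1 had 2 probe sets, DNAJB9 and PDIA4 had 3 each, and XBP1, SDF2L1, HSPA5, PDIA6 and CALR had 1 each.

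Secreted and membrane proteins fold in the endoplasmic reticulum (ER), and cells that make much of them, such as plasma cells, airway gland cells and the surfactant-making alveolar type 2 cells, hold large amounts of its chaperones. When unfolded protein builds up there, the sensor encoded by ERN1 splices XBP1 mRNA, and the transcription factor made from the spliced form raises genes for chaperones, translocation and degradation, together with the ATF6 and PERK branches of the unfolded protein response. These roles are known mainly from human, mouse and yeast cells. Whether the probe set for XBP1 tells the spliced from the unspliced mRNA was not tested, so its signal is read as XBP1 mRNA of either form.

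The animals were female swine, anesthetized, intubated and lying on their backs, and the left apical, median and caudal lobes were taken 12 h after 10 min of inhalation. As controls, 3 animals (28, 29 and 44) breathed air, while 3 animals (31, 32 and 33) received a low dose of 60 µg/kg HD vapor, and 4 animals (34, 39, 41 and 42) a medium dose of 100 µg/kg. HD is sulfur mustard, an alkylating agent that damages the airways. Strain and age were not given in the labels. Of the 28 arrays, 9 were apical, 10 median and 9 caudal, since the caudal lobe of medium animal 39 and the apical lobe of medium animal 41 have no array.

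Signals were intensities on a linear scale. Median signal per array was 55.4 to 64.2, the highest signal 3360 to 5495, and each array correlated with the rest at 0.968 to 0.982 on average. The surfactant protein genes SFTPC (2086 to 3664) and SFTPD (881 to 1634) were bright on every array and SFTPB ranged from 130 to 1144, while NKX2-1 was not measured under a single symbol. An index of RNA quality, which compares 3' with 5' control probe sets on the log2 scale and is higher where RNA is less intact, was 2.17 in medium animal 39 and 0.62 to 1.35 in the other animals. Samples were whole lobe tissue, in which fewer cells of a type and less RNA per cell cannot be told apart. Differences below are log2 differences of log2(signal + 16) after quantile normalization, with the standard error (SE) from limma, and a probe set counts as called where its p, adjusted by Benjamini-Hochberg over all 23999 probe sets, is under 0.05.

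Neither XBP1 nor any measured ER chaperone gene was called at either dose of sulfur mustard 12 h after inhalation. Between medium and air, 0 of the 13 probe sets were called, where 0.129% of all probe sets were. Between low and air, 0 of the 13 were called, where 0% of all were. Between medium and low, 0 of the 13 were called, where 0.00417% of all were. At an unadjusted p under 0.05, 2 of the 13 probe sets stood out between medium and air (16.6% of all), 1 between low and air (7.41% of all) and 1 between medium and low (18.2% of all). The medium and low differences share the air animals, so a like sign in both is not a second observation. Mean signals below are over the lobes that an animal has, and medium animals 39 and 41 each lack a lobe. Differences over all lobes use animal values adjusted for lobe.

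XBP1, the transcription factor, had mean signals over the lobes of 1723, 1543 and 1549 in air animals 28, 29 and 44, of 1786, 1642 and 1640 in low animals 31, 32 and 33, and of 1707, 1677, 1650 and 1608 in medium animals 34, 39, 41 and 42. The groups overlapped, and the mean of 1661 in medium animals and of 1605 in air animals differed by less than the SD of the air animals, 102. The difference was 0.03 ± 0.07 for medium over air (adjusted p = 0.895), with a 95% interval of -0.14 to 0.19, and 0.08 ± 0.08 for low over air (adjusted p = 0.809; 4 medium, 3 low and 3 air animals by limma).

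HSPA5, the Hsp70 chaperone also called BiP that holds the sensors of the unfolded protein response inactive, had mean signals of 2487, 2218 and 2526 in air animals, 2596, 2327 and 2267 in low animals and 2627, 2687, 2806 and 2498 in medium animals. Each medium animal lay above the mean of the air animals, but medium animal 42 lay below air animal 44, so the groups overlapped. Medium animal 41 has no apical array, the lobe where HSPA5 had its lowest mean signal (2272, against 2665 in the median lobe). In log2 animal values adjusted for lobe, medium animal 41 (11.38) lay below medium animals 39 (11.46) and 34 (11.42). The difference was 0.16 ± 0.08 for medium over air, with a 95% interval of -0.01 to 0.33 and an adjusted p of 0.334 by limma. For low over air it was 0.05 ± 0.08 (adjusted p = 0.908), and its sign turned to -0.01 with the deposited scaling and to -0.03 with median-centred arrays.

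SDF2L1, which works with HSPA5 and its cochaperone DNAJB11 in the ER, had mean signals of 171, 145 and 152 in air animals, 238, 129 and 203 in low animals and 192, 210, 176 and 158 in medium animals. The low animals spread across the range of all others, with animal 31 the highest and animal 32 the lowest of the 10. The differences were 0.19 ± 0.17 for medium over air (adjusted p = 0.621) and 0.21 ± 0.19 for low over air (adjusted p = 0.772). The low over air value moved with single animals: it was 0.05 without low animal 31 and 0.45 without low animal 32 (adjusted p = 0.990 and 0.495).

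HSP90B1, the Hsp90 chaperone of the ER also called GRP94, averaged 1728 ± 89.4 in air animals, 1651 ± 87.6 in low animals and 1853 ± 139 in medium animals at its brighter probe set (SD, n = 3, 3 and 4). The difference was 0.08 ± 0.07 for medium over air (adjusted p = 0.622) and 0.14 ± 0.07 for medium over low (adjusted p = 0.331). Its other probe set gave 0.07 ± 0.10 for medium over air and -0.03 ± 0.10 for medium over low. PDIA6, a disulfide isomerase, averaged 1454 ± 30.4 in air animals, 1547 ± 89.1 in low animals and 1507 ± 85.1 in medium animals, and its difference was 0.03 ± 0.08 for medium over air (adjusted p = 0.879). CALR, the calcium-binding lectin chaperone calreticulin, averaged 294 ± 31.5 in air animals, 290 ± 3.32 in low animals and 272 ± 36.6 in medium animals, and its difference was -0.14 ± 0.09 for medium over air (adjusted p = 0.497). The 95% interval for medium over air was -0.08 to 0.24 for HSP90B1, -0.14 to 0.20 for PDIA6 and -0.35 to 0.07 for CALR.

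**Figure D1:**
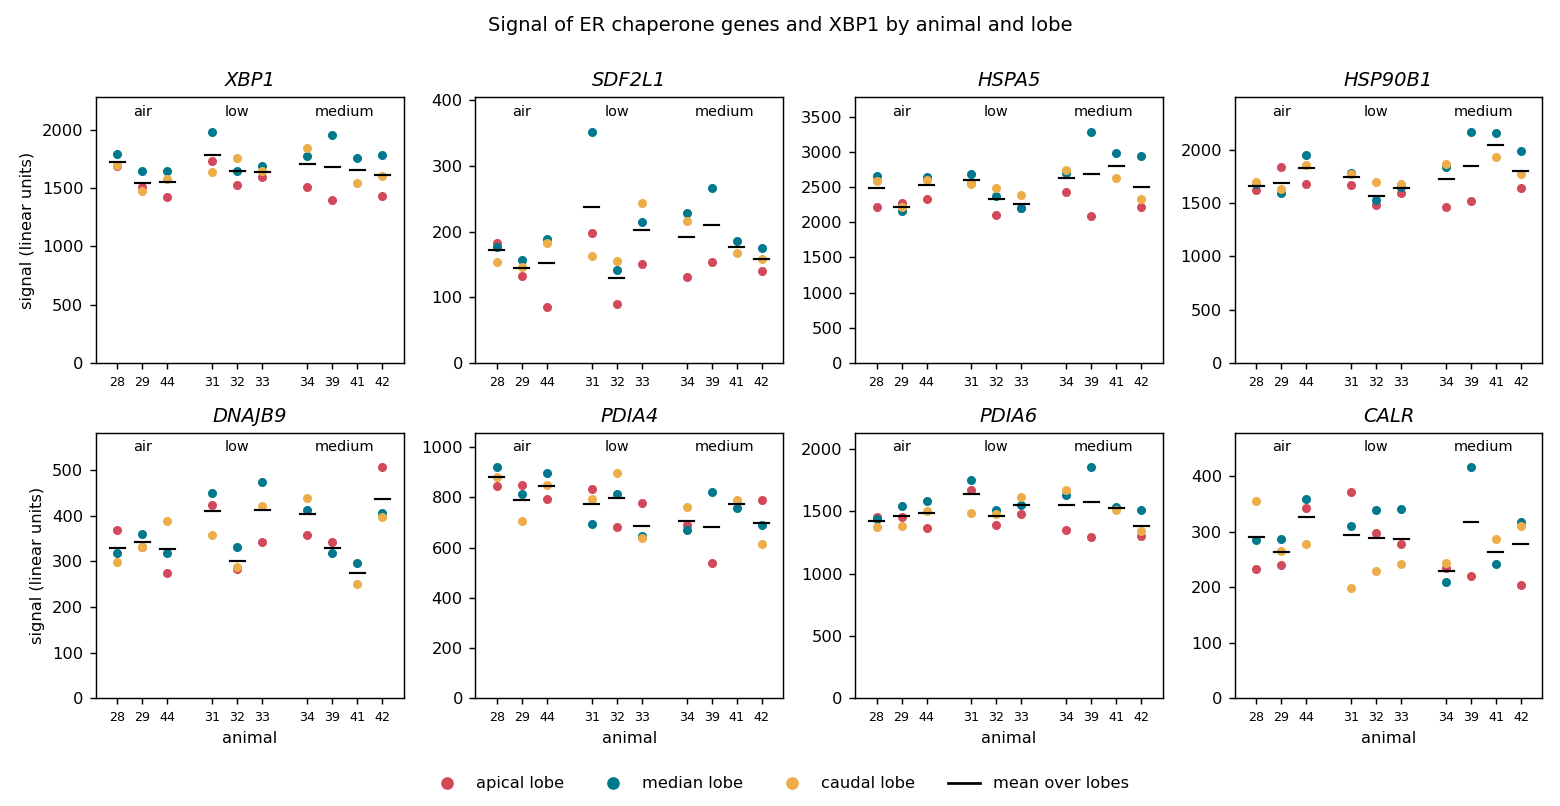
Deposited signal (linear units, from 0) of the probe set with the highest mean for each of the 8 measured genes, by animal in dose order; points are lobes and black bars the mean over an animal's lobes. Exposure groups overlap for XBP1, SDF2L1 and HSPA5, and the 4 medium animals of PDIA4 (681 to 774) lie below the 3 air animals (790 to 882).

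PDIA4, another disulfide isomerase of the ER, had the smallest unadjusted p for medium over air among the brightest probe sets. Its mean signals were 882, 790 and 847 in air animals, 774, 797 and 688 in low animals and 707, 681, 774 and 697 in medium animals. Every medium animal was lower than every air animal, while low animal 32 lay above air animal 29. By deposited signal, the brightest PDIA4 probe set was the only one of the 13 whose medium and air animals did not overlap. Of all probe sets 13.1% did not. Of the 13, 0 separated medium from low animals, where 13% of all did. In log2 animal values after normalization, medium animal 41 (9.65) lay above air animal 29 (9.64), so the groups overlapped. The difference was -0.24 ± 0.08 for medium over air, with an unadjusted p of 0.0188 and an adjusted p of 0.211 by limma, and -0.16 ± 0.09 for low over air (adjusted p = 0.703). The mean signal was 766 at the brightest PDIA4 probe set, 203 at the second and 29.7 at the dimmest (8.33 to 51.1 over the arrays). For medium over air the dimmest PDIA4 probe set had the same sign, at -0.18 ± 0.10 (adjusted p = 0.423), and the second had the other, at 0.24 ± 0.38. For low over air both were above 0, at 0.09 ± 0.11 for the dimmest and 0.70 ± 0.40 for the second. Over the 10 animals, the brightest PDIA4 probe set had correlations of -0.08 and 0.37 with the other PDIA4 probe sets, which had 0.73 with each other. The PDIA4 probe sets thus disagreed in sign, and the direction for the gene is uncertain.

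DNAJB9, a J-domain cochaperone of HSPA5 also called ERdj4, had its lowest p at its dimmest probe set, which gave 51.1, 59.9 and 68.5 in air animals, 75.6, 83.1 and 86.9 in low animals and 83.8, 64.4, 97.8 and 77.2 in medium animals. By this deposited signal all low animals were above all air animals, and medium animal 39 lay below air animal 44. No other of the 13 probe sets separated the low from the air animals, where 18.9% of all probe sets did. The difference was 0.37 ± 0.11 for medium over air (unadjusted p = 0.00761, adjusted p = 0.151) and 0.34 ± 0.12 for low over air (unadjusted p = 0.0154, adjusted p = 0.661). With a random animal effect over all arrays, the adjusted p for medium over air was 0.0421, and 1044 probe sets were then called, against 31. The brightest DNAJB9 probe set gave 0.09 ± 0.16 and the second 0.02 ± 0.23 for medium over air. Those probe sets had a correlation of 0.87 over the 10 animals and of 0.04 and 0.24 with the dimmest, so the dimmest stood alone.

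**Figure D2:**
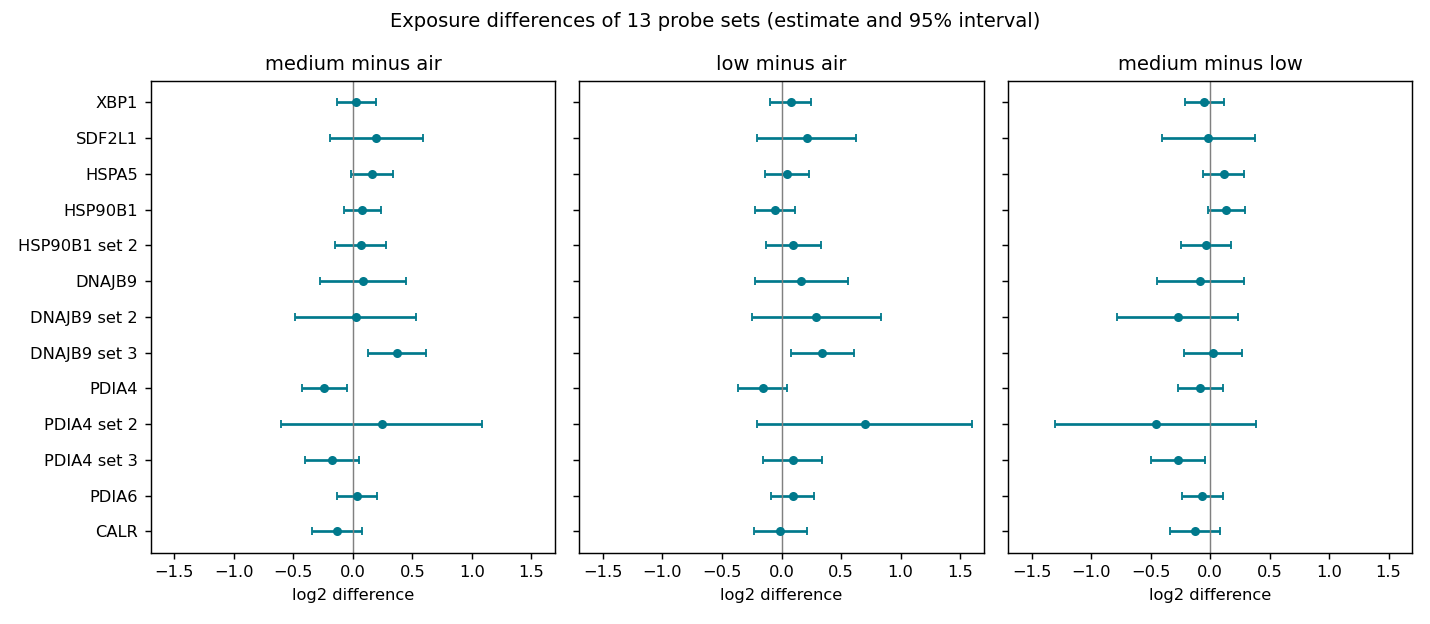
Log2 difference of each of the 13 probe sets in 3 exposure contrasts, estimate with its 95% interval from limma (4 medium, 3 low and 3 air animals); sets 2 and 3 are the dimmer probe sets of a gene. For medium minus air the intervals of DNAJB9 set 3 (0.12 to 0.61) and of PDIA4 (-0.43 to -0.05) leave out 0, and no probe set had an adjusted p under 0.05 in any contrast.

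Within single lobes 0 of the 13 probe sets were called by limma in any of the 9 contrasts, and 0 to 3 had an unadjusted p under 0.05 in each, where 5.77% to 22.4% of all probe sets did. The share of all probe sets called was 0.404% for medium over air in the median lobe, 0.0208% for medium over low in the median lobe, 0.00417% for medium over air in the caudal lobe and 0% in the other contrasts. Groups of arrays that did not overlap, by deposited signal before normalization, ran in both directions. Between medium and air, PDIA4 (brightest probe set) and PDIA6 were lower in the apical lobe without overlap (9.9% of all probe sets did not overlap), HSPA5 was higher in the median lobe (15.1%), and 0 of the 13 separated in the caudal lobe (18.9%). Between medium and low, XBP1, the dimmer HSP90B1 probe set, PDIA6 and CALR were lower in the apical lobe (14.4%), HSPA5 and the brighter HSP90B1 probe set were higher in the median lobe (18.7%), and the brighter HSP90B1 probe set and CALR were higher in the caudal lobe (12.5%). Between low and air, 0 separated in the apical lobe (15.9%). In the median lobe the dimmest DNAJB9 and the second PDIA4 probe set were higher in low animals and the brightest PDIA4 probe set was lower (16.1%), and in the caudal lobe the dimmest DNAJB9 probe set was higher and CALR lower (12%).

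In the apical lobe PDIA4 had 673 ± 126 in medium animals and 830 ± 30.3 in air animals, with a difference of -0.33 ± 0.15 (adjusted p = 0.860), and PDIA6 had 1314 ± 29.7 in medium animals and 1425 ± 51.1 in air animals, with a difference of -0.06 ± 0.11 (adjusted p = 0.990; SD, n = 3 each). The HSPA5 signal in the median lobe was 2980 ± 238 in medium animals and 2486 ± 286 in air animals (SD, n = 4 and 3), in medium animals from 2709 to 3287 and in air animals from 2155 to 2660. The difference was 0.21 ± 0.09 (unadjusted p = 0.0359, adjusted p = 0.235). In the apical lobe HSPA5 had 2245 ± 170 in medium animals and 2279 ± 59.5 in air animals, while the difference after normalization had the other sign, at 0.15 ± 0.13 (adjusted p = 0.933). In the caudal lobe it had 2569 ± 213 in medium animals and 2466 ± 215 in air animals, with a difference of 0.08 ± 0.12 (adjusted p = 0.783). Whether the exposure differences of HSPA5 differ between lobes was tested by the interaction of exposure and lobe, which gave an adjusted p of 0.999.

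The dimmest DNAJB9 probe set gave 0.29 ± 0.12, 0.40 ± 0.13 and 0.41 ± 0.15 for medium over air in the apical, median and caudal lobe, with adjusted p values of 0.843, 0.160 and 0.245. CALR had opposite signs in different lobes: for low over air it was -0.38 ± 0.14 in the caudal lobe (adjusted p = 0.807) and 0.24 ± 0.17 in the apical lobe (adjusted p = 0.765). In the apical lobe CALR had 220 ± 14.7 in medium animals and 316 ± 49.6 in low animals, a difference of -0.52 ± 0.17 (adjusted p = 0.373). The interaction of exposure and lobe called 0 of the 13 probe sets (0% of all), and its smallest unadjusted p among them was 0.0157 for the dimmest DNAJB9 probe set (adjusted p = 0.626) and 0.0291 for CALR (adjusted p = 0.646).

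Between lobes of the same animal, XBP1 and SDF2L1 fell in the apical against the median lobe. Among the other members, HSPA5, HSP90B1, PDIA6 and CALR had negative differences that did not pass the test. In all, 2 of the 13 probe sets were called, both lower, where 2.38% of all probe sets were called in either direction and 0.975% were lower. Differences were below 0 for 12 of the 13 probe sets with a median of -0.14, against 11691 of 23999 and a median of 0.00 over all probe sets.

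XBP1 had signals of 1401, 1509 and 1735 in the apical lobe (lowest, median and highest of 9 arrays) and of 1645, 1765 and 1981 in the median lobe (10 arrays). The ranges overlapped between animals, but in each of the 9 animals with both lobes the apical value was the lower one, a pattern that 1.37% of all probe sets showed. The difference was -0.19 ± 0.04 (adjusted p = 0.0312), with within-animal differences of -0.29 to -0.06. Its mean was -0.16 in the 3 air animals, -0.17 in the 3 low animals and -0.25 in the 3 medium animals.

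SDF2L1 had signals of 84.7, 140 and 199 in the apical lobe and of 141, 188 and 352 in the median lobe (lowest, median and highest). The apical lobe was lower in 8 of 9 animals, the exception being air animal 28 with 183 in the apical and 177 in the median lobe. The difference was -0.53 ± 0.12 (adjusted p = 0.0287), with a mean of -0.40 in air, -0.60 in low and -0.58 in medium animals. Interaction tests gave adjusted p values of 0.959 for XBP1 and 0.999 for SDF2L1.

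Both calls depended on single animals. The adjusted p was above 0.05 when air animal 44, low animal 32 or medium animal 34, 39 or 42 was left out alone, reaching 0.101 for XBP1 and 0.0827 for SDF2L1, and for XBP1 also without low animal 33 (0.0520). Both lost the call among the 8 animals with all 3 lobes (adjusted p = 0.0959 for XBP1 and 0.0971 for SDF2L1), and 47 probe sets of the array were then called, against 570. The calls of the whole array fell with the same animals: 63 of 23999 probe sets were called without air animal 44, 248 without low animal 32, and 33, 47 and 34 without medium animals 34, 39 and 42. They were 153 without air animal 28 and 388 to 568 without each of the other animals, so the share of 2.38% called depended on single animals as well. The differences themselves were -0.21 to -0.18 for XBP1 and -0.60 to -0.46 for SDF2L1 over all animals left out in turn.

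HSPA5 was lower in the apical lobe in 8 of 9 animals, with signals of 2086, 2223 and 2567 in the apical and 2155, 2672 and 3287 in the median lobe (lowest, median and highest) and a difference of -0.15 ± 0.05 (adjusted p = 0.0977). HSP90B1 gave -0.13 ± 0.05 (adjusted p = 0.145) and PDIA6 -0.14 ± 0.05 (adjusted p = 0.123), both with the apical lobe lower in 8 of 9 animals. CALR gave -0.21 ± 0.13 (adjusted p = 0.422), the brightest DNAJB9 probe set -0.09 ± 0.07 (adjusted p = 0.587) and the brightest PDIA4 probe set -0.04 ± 0.08 (adjusted p = 0.857). PDIA4 turned to 0.03 without medium animal 39, while the dimmest DNAJB9 probe set was the 1 of the 13 above 0, at 0.09 ± 0.07.

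Between the apical and the caudal lobe 0 of the 13 probe sets were called (0.167% of all), 4 had an unadjusted p under 0.05 by limma (13.6% of all), and 11 of the 13 differences were below 0 (12238 of 23999 over all). The difference was -0.36 ± 0.12 for SDF2L1 (adjusted p = 0.185), -0.11 ± 0.05 for XBP1 (adjusted p = 0.292), -0.12 ± 0.05 for HSPA5 (adjusted p = 0.295) and -0.13 ± 0.05 for HSP90B1 (adjusted p = 0.267). Between the median and the caudal lobe 0 were called (0% of all) and 1 had an unadjusted p under 0.05 (11.6% of all), with 0.08 ± 0.04 for XBP1 (adjusted p = 0.483) and 0.17 ± 0.12 for SDF2L1 (adjusted p = 0.608). XBP1 signals in the caudal lobe were 1473, 1641 and 1839 and those of SDF2L1 146, 163 and 243 (lowest, median and highest). By mean signal, both genes thus ran from apical over caudal to median, and neither neighbouring pair in that order passed the test.

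**Figure D3:**
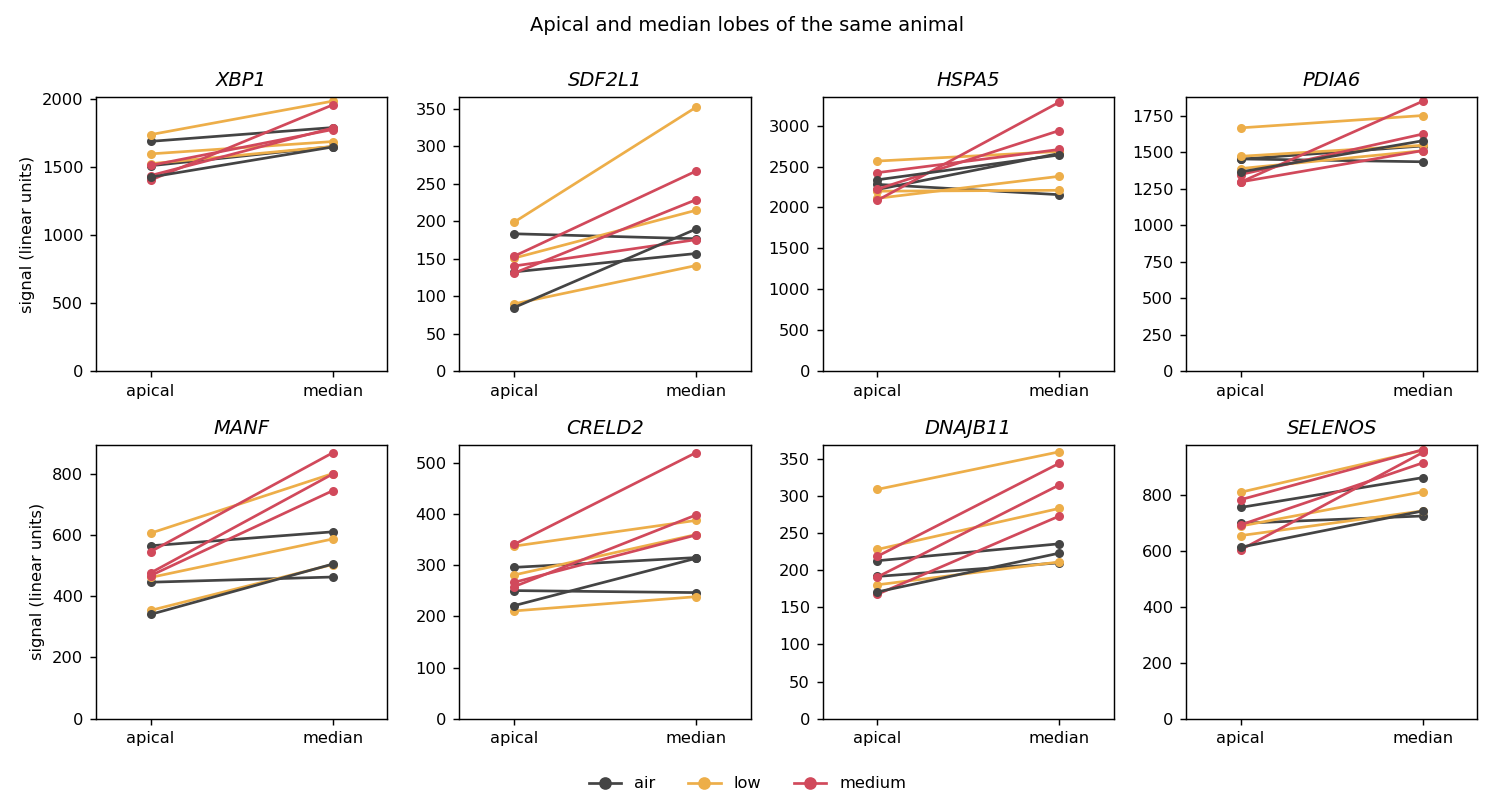
Deposited signal (linear units, from 0) in the apical and the median lobe of the 9 animals that have both, 1 line per animal coloured by exposure, for 4 members above and 4 other genes of ER protein handling below. Lines run upwards to the median lobe in 9 of 9 animals for XBP1 and in 8 of 9 for SDF2L1, HSPA5 and PDIA6.

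Of 80 other listed genes that work in the ER, 54 were measured, and 5 of them fell in the apical against the median lobe while 0 rose, where 2.38% of all probe sets were called and 0.975% fell. MANF, a secreted ER stress protein that binds HSPA5, gave -0.46 ± 0.10 (adjusted p = 0.0297). HYOU1, a large chaperone that exchanges the nucleotide of HSPA5, gave -0.38 ± 0.10 (adjusted p = 0.0483), and DNAJB11, a J-domain cochaperone of HSPA5, gave -0.38 ± 0.09 (adjusted p = 0.0381). CRELD2, a protein induced by ER stress, gave -0.32 ± 0.08 (adjusted p = 0.0416), and SELENOS, a selenoprotein of the degradation machinery, gave -0.29 ± 0.06 (adjusted p = 0.0269); CRELD2 and SELENOS are named after their values were seen. The apical lobe was lower in 9 of 9 animals for MANF, DNAJB11 and SELENOS (1.37% of all probe sets) and in 8 of 9 for HYOU1 and CRELD2.

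MANF had signals of 341, 467 and 606 in the apical and of 463, 678 and 869 in the median lobe (lowest, median and highest). The called genes were 4 of 14 measured genes for folding and disulfide bonds and 1 of 10 for degradation from the ER. None of 17 genes of translocation and signal cleavage or 7 of glycan transfer and trimming was called. Of 6 sensors and factors of the unfolded protein response none was called either. These were ATF6B, EIF2S1, ATF4, DDIT3, PPP1R15A and ATF3, while the sensors ERN1, EIF2AK3 (PERK) and ATF6 were not measured under a single symbol. At an unadjusted p under 0.05 by limma, however, the counts were 10 of 14 for folding and 10 of 17 for translocation. They were 2 of 10 for degradation, 2 of 7 for glycan transfer and 0 of 6 for sensors and factors, against 3992 of 23999 over all. SPCS3 of the translocation list and RPN1 of the glycan list were not called but were lower in the apical lobe in 9 of 9 animals. Differences were below 0 for 43 of the 54 genes, with a median of -0.11, against 11691 of 23999 and 0.00 over all probe sets. When air animal 44 or medium animal 34, 39 or 42 was left out alone, 0 of the 54 genes were called, as the calls of the whole array fell to 33 to 63. The count was 1 without air animal 28 and 2 without low animal 32, low animal 33 or medium animal 41.

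**Figure D4:**
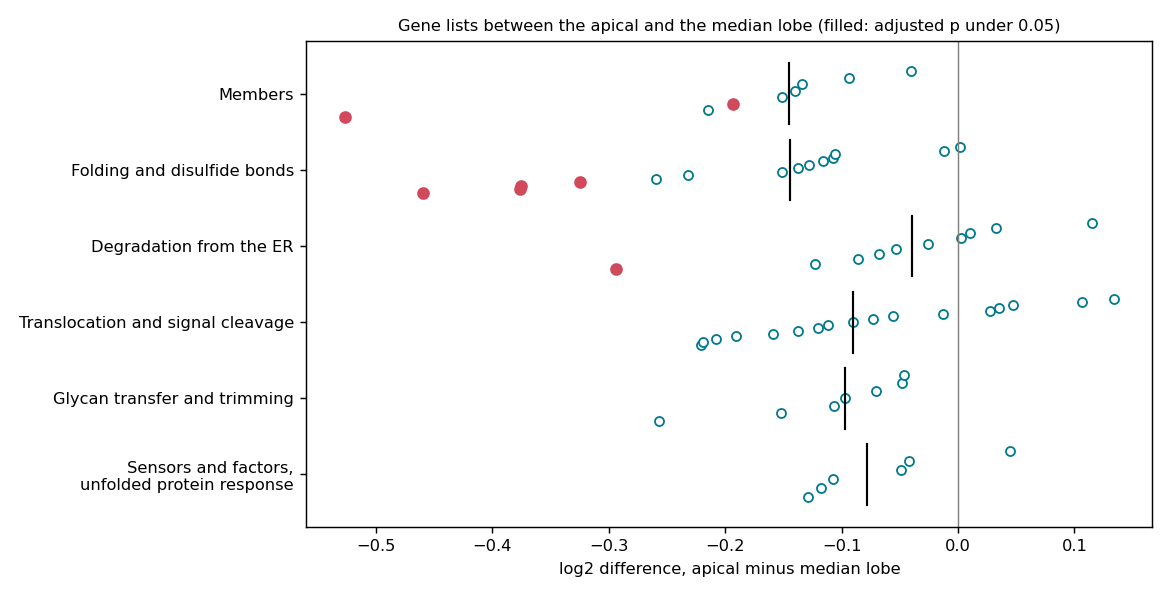
Log2 difference, apical minus median lobe, of 8 members (brightest probe set) and 54 other genes of 5 lists; filled points have an adjusted p under 0.05 by limma and black bars are list medians. The filled points are XBP1 and SDF2L1 among members, 4 genes of folding and SELENOS of degradation, all below 0.

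Of 25 markers of other cells, 2 were called between these lobes, where 2.38% of all probe sets were. At an unadjusted p under 0.05 by limma they numbered 9, against 3992 of 23999 over all. Of 4 measured plasma and B cell markers among 11 listed, TNFRSF17 (0.39 ± 0.09, adjusted p = 0.0298) and CD79B (0.27 ± 0.07, adjusted p = 0.0438) rose in the apical lobe, JCHAIN was 0.01 ± 0.05 and SDC1 -0.22 ± 0.09. TNFRSF17 and CD79B were dim, with mean signals of 50.9 and 55.7. The summed signal of the 4 was 1875 to 2382 in the apical and 1825 to 2374 in the median lobe, most of it from JCHAIN (mean 1594). All 4 measured ciliated cell genes, of 8 listed, were below 0 with a median of -0.17, and summed to 464 to 772 in the apical and 386 to 919 in the median lobe. The 4 measured secretory and gland genes, of 11 listed, had a median of -0.21 (1389 to 2483 in the apical and 1242 to 3436 in the median lobe). The 5 measured alveolar type 2 genes, of 8 listed, had a median of -0.12 (5639 to 8961 in the apical and 7339 to 9670 in the median lobe), and the 4 measured macrophage genes, of 7 listed, one of 0.12 (1428 to 3565 in the apical and 1130 to 3286 in the median lobe). The 4 measured cartilage genes, of 7 listed, summed to 66.1 to 158 in the apical and 90.4 to 148 in the median lobe, and among all these markers SOX9 of that list was near 0 (0.448 to 2.05). By its median, the RNA quality index was 0.949 in the apical and 0.811 in the median lobe, and by its mean 0.992 in the apical and 1.02 in the median lobe. The values of the median lobe include medium animal 41 (1.42), which has no apical array, so the 2 lobes are not compared over the same animals. The part of cell makeup and RNA quality in the lobe differences was not tested.

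The same 54 genes gave 0 calls by limma in each of the 3 exposure contrasts. At an unadjusted p under 0.05, 5 of the 54 stood out between medium and air, where 16.6% of all probe sets did. The count was 2 between low and air (7.41% of all) and 6 between medium and low (18.2% of all). For medium over air the smallest p values belonged to EIF2S1, the translation factor that the PERK branch phosphorylates (0.34 ± 0.07, adjusted p = 0.0858), MANF (0.37 ± 0.12, adjusted p = 0.166), the lectin ERLEC1 of the degradation pathway (0.17 ± 0.06, adjusted p = 0.184), CRELD2 (0.39 ± 0.13, adjusted p = 0.187) and SELENOS (0.19 ± 0.08, adjusted p = 0.283). EIF2S1 averaged 552 ± 37.6 in air animals, 604 ± 23.4 in low animals and 705 ± 49.7 in medium animals (SD, n = 3, 3 and 4). By limma, EIF2S1 passed without medium animal 39 (adjusted p = 0.0444) and with a random animal effect (adjusted p = 0.0137). With the random animal effect 1044 probe sets of the array were called, against 31. With animals left out in turn the array had 0 to 383 calls. Over all 54 genes, 32 differences were above 0 and the median was 0.01, against 11970 of 23999 and 0.00 over all probe sets.

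By list, the medians for medium over air were 0.03 for folding and disulfide bonds, 0.00 for degradation from the ER, 0.01 for translocation and signal cleavage, 0.06 for glycan transfer and trimming and 0.26 for the 6 measured sensors and factors of the unfolded protein response, of 12 listed. In that last list, measured without the sensors ERN1, EIF2AK3 and ATF6, 4 of 6 differences were above 0, and 1 had an unadjusted p under 0.05. For medium over low its median was 0.23, with 6 of 6 above 0 (12177 of 23999 over all), and for low over air -0.10, with 1 of 6 above 0. In the apical lobe its median for medium over air was 0.13, and 0 of 6 had an unadjusted p under 0.05, where 5.77% of all probe sets did. In the caudal lobe its median was 0.14, with 2 of 6 (15.5% of all). In the median lobe its median for medium over air was 0.39, and 4 of 6 had an unadjusted p under 0.05, where 18.6% of all probe sets did. These were EIF2S1 (0.41 ± 0.11, adjusted p = 0.0980), the stress transcription factor ATF4 (0.36 ± 0.11, adjusted p = 0.141), PPP1R15A, which directs the dephosphorylation of the EIF2S1 product (0.46 ± 0.16, adjusted p = 0.166), and ATF3, a transcription factor induced by many stresses (0.60 ± 0.25, adjusted p = 0.242). None of the 4 was called by limma, and ATF4, PPP1R15A, ATF3 and DDIT3 are named after their values were seen. DDIT3, the factor CHOP that acts downstream of ATF4, gave -0.12 ± 0.17 there and ATF6B -0.01 ± 0.11.

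For low over air the smallest p values were those of ATF6B, a relative of the sensor ATF6 (-0.33 ± 0.08, adjusted p = 0.653), OSTC of the oligosaccharyltransferase (0.28 ± 0.10), SRPRB of the signal recognition particle receptor (0.29 ± 0.14), the thioredoxin-like ERP44 (0.26 ± 0.14) and SPCS3 of the signal peptidase (0.24 ± 0.13). For medium over low they were those of ATF6B (0.22 ± 0.07, adjusted p = 0.180), EIF2S1 (0.21 ± 0.07), SEC11C of the signal peptidase (-0.23 ± 0.08), SEC63 of the translocon (-0.30 ± 0.13) and the prolyl isomerase FKBP11 (-0.39 ± 0.17, adjusted p = 0.259). FKBP11 passed without medium animal 34, at -0.57 with an adjusted p of 0.0202, when 1371 probe sets of the array were called.

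Of the 25 markers, 0 were called by limma between exposures. At an unadjusted p under 0.05 they numbered 2 between medium and air, where 16.6% of all probe sets passed. They numbered 3 between low and air (7.41% of all) and 6 between medium and low (18.2% of all). Ciliated cell genes summed to 515 to 601 in air, 634 to 860 in low and 452 to 557 in medium animals. Secretory and gland genes summed to 1642 to 2472 in air, 2430 to 2678 in low and 1282 to 2013 in medium animals, and plasma and B cell genes to 2252 to 2386, 1840 to 2148 and 1961 to 2120 in that order of dose. Alveolar type 2 genes summed to 7109 to 8598 in air, 8329 to 8781 in low and 6767 to 8443 in medium animals. Macrophage genes summed to 2180 to 2978 in air, 2387 to 3352 in low and 1279 to 3040 in medium animals. Cartilage genes summed to 92.8 to 114 in air, 77.4 to 99.1 in low and 93.4 to 129 in medium animals. The RNA quality index averaged 1.12 in air, 0.765 in low and 1.24 in medium animals, and its part in the exposure differences was not tested.

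Over the 10 animals, the members did not vary as 1 block when each gene was taken at its brightest probe set. Pearson correlations between the 28 pairs of member genes ran from -0.51 for SDF2L1 and PDIA4 to 0.74 for SDF2L1 and HSPA5, and 14 of the 28 were above 0. SDF2L1, HSPA5, PDIA6 and XBP1 had correlations of 0.52 to 0.74 with each other. HSPA5 and HSP90B1 had 0.66, and PDIA4 was below 0 with every other member except CALR (0.32). The values of HSP90B1 and PDIA4 depend on the probe set. The HSP90B1 probe sets had 0.17 with each other, and the brightest PDIA4 probe set had -0.08 and 0.37 with the other PDIA4 probe sets. These are descriptions over 10 animals that share exposure groups, arrays and RNA quality.

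Among 6559 other genes, the 5 whose animal values were most like those of HSPA5 were CRELD2 (r = 0.96), MANF (0.94), ASNSD1 (0.92), PPID (0.91) and C12H17orf80 (0.91). CRELD2 averaged 285 ± 30.8 in air, 310 ± 40.9 in low and 388 ± 58.4 in medium animals, and MANF 496 ± 55.6 in air, 572 ± 82.1 in low and 671 ± 58.2 in medium animals (SD, n = 3, 3 and 4). In animal values adjusted for lobe, air animal 29 and low animal 32 were the lowest of the 10 animals in HSPA5 and CRELD2, and medium animal 39 was the highest in HSPA5, CRELD2 and MANF. The 5 genes most like XBP1 were BORA (r = 0.93), MRPL43 (0.91), NDUFA4 (0.90), MRPS5 (0.89) and C8H4orf33 (0.87), none of which is on a list of ER genes used here.

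**Figure D5:**
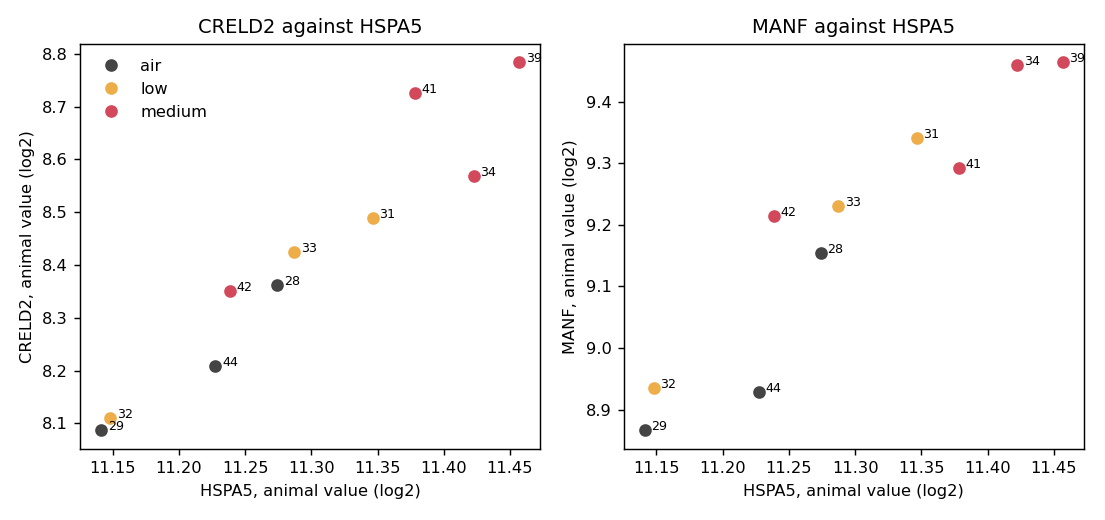
Animal values (log2, adjusted for lobe) of CRELD2 and MANF against HSPA5 for the 10 animals, coloured by exposure and labelled by animal number. Pearson r is 0.96 for CRELD2 and 0.94 for MANF; air animal 29 is lowest and medium animal 39 highest on each axis.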

How the data were processed

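The authors deposited 1 intensity for each probe set and array of the Affymetrix porcine array, on a linear scale. How they summarized and scaled it is not given in the sources used here; with 2% of probe sets trimmed at either end, each array averaged 150. The 124 controls were dropped and no brightness filter was set, which left 23999 probe sets, of which 10069 had 1 symbol in the annotation. A gene with several probe sets is given at the one with the highest mean signal. Signals were used as log2(signal + 16) and quantile normalized, because the arrays' lower quartiles lay up to 0.316 apart. The number of arrays limits the precision.

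Tests used limma 3.58.1 in R 4.3.3. The animal was the replicate: its value was its coefficient in a model on animal and lobe, and 1 fit of the 3 groups gave the exposure contrasts. Single lobes were fitted with 1 array per animal, and lobes and the interaction (moderated F test) with the animal as a fixed block. Animal numbers come from the sample titles. Deviations of lobes of the same animal correlated in all 26 pairs (0.154 to 0.617, median 0.369). Those of different animals ran from -0.435 to 0.378 over 235 pairs (median -0.0431), and 56 of these were over 0.1. The numbers thus pair the samples as a set, but the ranges overlap, so a single pair is not decided. The steps were tested on simulated data, and figures were drawn in Python 3.11.15 with matplotlib 3.10.9.

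Every member was named. Of the other listed genes, the 3 with the largest rise and fall among those called were named per contrast, or the 5 with the smallest p, and the 5 genes most like XBP1 and HSPA5. The members and lists were chosen with earlier results of these data known. Alternatives were the deposited scaling, median-centred arrays, an offset of 1, only the brighter probe sets, trend and robust eBayes, a random animal effect, no replicate block, fits of the compared groups alone, the 8 animals with all 3 lobes, and the omission of 1 animal at a time.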

Additional observations from a re-analysis of the deposited data

How the results depend on the processing

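The 7 called differences, all in the apical against the median lobe, kept their direction in all 119 alternatives run for them. The count of member probe sets called there was 1 with median-centred arrays, 1 with an offset of 1, 0 among the 8 animals with all 3 lobes and 0 with no replicate block (XBP1 -0.19, adjusted p = 0.279), and 0 to 2 over animals left out in turn; HSPA5 passed with trend and robust eBayes (adjusted p = 0.0440). The count of the 54 other genes was 11 among the brighter probe sets, 9 with trend and robust eBayes, 3 with median-centred arrays, 1 with an offset of 1, 0 among the 8 animals, 0 with no replicate block and 0 to 6 over animals left out. The calls over all probe sets moved as well. They were 203 with an offset of 1, 47 among the 8 animals and 0 with no replicate block, against 570 of 23999. Among the brighter probe sets, fewer than the 23999, they were 1007, so the share called there was higher than the 2.38% over all probe sets. Between medium and air 1 member and 1 other gene were called with a random animal effect, and 0 to 1 of the other genes over animals left out, as also between medium and low. PDIA4 set 3 was not among the brighter probe sets and has no value there. The number of arrays, 3 or 4 animals a group, limits each count.

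Of 111 differences, 64 of 1906 alternatives turned a sign, none of them of a called difference; the largest turned value was 0.164, and the cause was not tested. Among the 8 animals with all 3 lobes the turned values were 0.0552 for CALR and 0.0353 for PDIA4 (apical minus caudal), 0.0242 for PDIA4 (apical minus median), -0.00552 for HSP90B1 (median minus caudal), -0.0156 for PDIA6 (medium minus air) and 0.0714 for DNAJB9 set 2, 0.164 for DNAJB9 and 0.00380 for HSP90B1 set 2 (medium minus low). With median-centred arrays they were -0.0130 for DNAJB9 set 2 (apical minus caudal), -0.0328 for HSPA5 (low minus air), -0.00472 for PDIA4 (median minus caudal) and 0.00659 for HSP90B1 set 2 and 0.0152 for SDF2L1 (medium minus low). With the deposited scaling they were -0.00761 for HSPA5 (low minus air), 0.0243 for HSP90B1 set 2 (median minus caudal) and -0.0188 for DNAJB9 set 3 (medium minus low). With no replicate block they were -0.0268 for DNAJB9 set 2, 0.0144 for DNAJB9 and -0.0756 for PDIA4 set 2 (apical minus caudal). Leaving out animals in turn gave, for apical minus caudal, -0.134 to 0.0569 for CALR, -0.0478 to 0.0932 for DNAJB9 set 2, -0.0671 to 0.0377 for DNAJB9 set 3, -0.0510 to 0.0553 for DNAJB9, -0.0633 to 0.210 for PDIA4 set 2 and -0.0561 to 0.0416 for PDIA4. For apical minus median it gave -0.0750 to 0.0304 for PDIA4. For low minus air it gave -0.0762 to 0.0744 for CALR. For median minus caudal it gave -0.0266 to 0.0366 for HSP90B1 set 2, -0.00165 to 0.0236 for HSP90B1 and -0.00167 to 0.0534 for PDIA4. For medium minus air it gave -0.100 to 0.179 for DNAJB9 set 2, -0.0148 to 0.203 for DNAJB9 and -0.00894 to 0.0944 for XBP1. For medium minus low it gave -0.0539 to 0.0908 for DNAJB9 set 3, -0.222 to 0.0354 for DNAJB9, -0.0905 to 0.0139 for HSP90B1 set 2 and -0.253 to 0.155 for SDF2L1.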
